A study of Mus musculus with 6 samples.

Results

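The genes described here encode 10 nuclear receptors of the PPAR, retinoid and related groups, namely Pparg, Ppard, Rara, Rarg, Rxra, Rxrb, Nr3c1, Nr2f6, Thra and Esrra. They were chosen by gene symbol, and all 10 had a row among the 12161 genes of the deposited table. Messenger RNA was sequenced from LSK cells of C57BL/6 mouse bone marrow, a fraction without lineage markers and with Sca1 and Kit on the surface, which holds blood stem cells and early progenitors. Of the 6 libraries, 3 came from cells given a MIG-Hhex retrovirus (genotype label "Hhex") and 3 from cells given MIG alone (genotype label "wild-type"). The submitters call each set of 3 biological replicates. After infection all cells were grown for 2 days in mL-3 (so spelled in the labels, 10 ng/mL), mIL-6 (10 ng/mL), mSCF (50 ng/mL) and mFlt-3 (50 ng/mL), and the GFP-positive LSK cells were then sorted for RNA. Replicates are named WT3, WT691 and WT703 in the labels, with 1 library of each vector per name. Both WT3 libraries carry flow cell C3RJFACXX in their labels and the other 4 carry C5LWPANXX. The age and sex of the mice and the number pooled per library are not given in the labels used here.

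Nuclear receptors are transcription factors that a small lipid-soluble ligand, such as a fatty acid, a retinoid or a steroid, can switch from repressing to activating their targets. The PPAR, retinoic acid and thyroid hormone receptors bind DNA together with a retinoid X receptor, RXR, which they therefore share. The glucocorticoid receptor Nr3c1 instead waits in the cytoplasm on chaperones and acts on DNA chiefly as a homodimer. In blood cells, retinoic acid acting on RARα drives granulocyte maturation, and PPARγ is best known for its role in macrophages and, outside blood, in fat cells.

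The table gives a log2 value per gene and library, with library medians between 3.56 and 3.60 and unknown sequencing depth. Hhex lay at 7.61, 9.34 and 9.06 in the MIG-Hhex libraries of WT3, WT691 and WT703, against 5.18, 5.05 and 5.13 in the MIG libraries. It was higher wherever the Hhex vector was used, by 11.7-fold (limma adjusted p = 0.00189), and how far this value counts vector-borne beside endogenous transcripts was not tested. Kit averaged 4.56 with MIG-Hhex and 4.73 with MIG. Ly6a, which encodes Sca1, lay at 3.55, 6.21 and 5.89 in the MIG-Hhex libraries of WT3, WT691 and WT703, against 3.18, 6.25 and 6.08 in the MIG libraries, so the WT3 libraries were the lowest in both groups. Transcripts of the neutrophil granule protease Elane were abundant in both groups, at 9.97 ± 0.88 with MIG-Hhex and 10.11 ± 0.63 with MIG (SD, n = 3 each).

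Among the 10 receptors, 5 were higher with MIG-Hhex (Rxra, Rarg, Rara, Ppard and Thra), 1 was lower (Pparg), and Rxrb, Nr3c1, Nr2f6 and Esrra did not pass the test. Changes were tested with limma on the log2 values, with the flow cell as a covariate and p-values adjusted over all genes. Over all genes, 18.0% passed the same threshold, 9.44% as higher and 8.52% as lower. The median difference of the 10 receptors was 0.38, against −0.02 for all genes. In 6 of the 10 receptors, the same 6 that passed, the 3 MIG-Hhex values did not overlap the 3 MIG values. This was true of 21.2% of all genes. A gene that passes the test tends to be separated so, and the separation is no further support. RNA came from a whole sorted population, so a change in the share of cells that express a receptor and a change in its RNA per cell cannot be told apart.

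**Figure D1:**
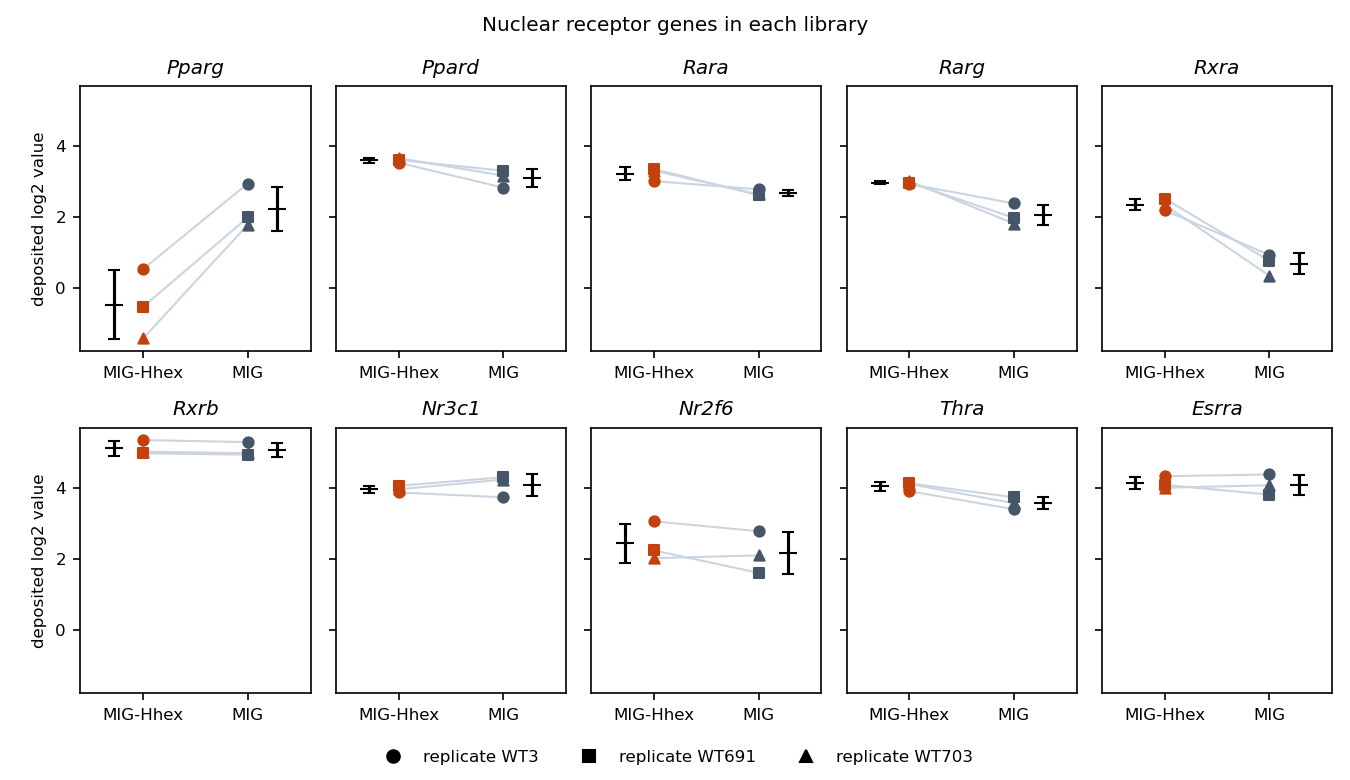
Deposited log2 value (vertical axis) of each of the 10 receptor genes in the 3 MIG-Hhex and 3 MIG libraries. Symbols mark the replicate, grey lines join the libraries of a replicate, and black bars give the mean ± SD; Pparg is lower in each MIG-Hhex library and Rxra, Rarg, Rara, Ppard and Thra are higher.

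Pparg encodes PPARγ, the fatty acid-activated receptor of fat storage and of lipid handling in macrophages, and it showed the largest change of the 10. Its log2 value was 0.53, −0.53 and −1.42 in the MIG-Hhex libraries of WT3, WT691 and WT703, against 2.94, 1.99 and 1.78 in the MIG libraries. All 3 MIG-Hhex libraries lay below all 3 MIG libraries, and within each group WT3 was the highest. The mean was −0.47 ± 0.98 with MIG-Hhex and 2.24 ± 0.62 with MIG (SD, n = 3 each), a difference of −2.71 (SE 0.26, 6.55-fold lower, limma adjusted p = 0.00223). The pairs of WT3, WT691 and WT703 differed by −2.41, −2.52 and −3.21. The size of the difference was at or above that of 99.1% of all genes. It was −1.69 after 1 was added to the unlogged value, which damps changes of weakly expressed genes, and the call held (limma adjusted p = 0.0011). Without the flow cell term the call was lost (limma adjusted p = 0.0714).

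Pparg (Entrez 19016) lies on the plus strand of chromosome 6 from 115360879 to 115490404 in GRCm38. The promoter windows used hold 3 RefSeq starts, here A, B and C, of which B lies 1205 bases and C 60922 bases downstream of A. The gene span itself begins upstream of window A, so all 3 windows lie inside it, and no window at the outermost end of the span is shown. The deposited table has 1 value per gene, so the starts were not separated. The 250 bases before each start are shown because Pparg carries the largest change of the set. Capitals mark AGGTCA or its reverse complement TGACCT, the core hexamer that PPAR, RAR, TR and RXR recognise.
Pparg start A, chr6:115360894-115361143, plus strand: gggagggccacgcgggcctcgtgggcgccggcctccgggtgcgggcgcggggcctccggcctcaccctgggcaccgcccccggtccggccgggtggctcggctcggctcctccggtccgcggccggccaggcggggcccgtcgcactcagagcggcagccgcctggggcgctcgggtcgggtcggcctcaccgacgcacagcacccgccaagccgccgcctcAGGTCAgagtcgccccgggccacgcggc
Pparg start B, chr6:115362099-115362348, plus strand: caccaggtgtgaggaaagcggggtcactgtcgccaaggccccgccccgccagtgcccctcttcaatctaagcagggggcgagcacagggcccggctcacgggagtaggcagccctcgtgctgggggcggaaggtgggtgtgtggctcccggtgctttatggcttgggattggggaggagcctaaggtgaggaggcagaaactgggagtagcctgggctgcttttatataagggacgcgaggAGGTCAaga
Pparg start C, chr6:115421816-115422065, plus strand: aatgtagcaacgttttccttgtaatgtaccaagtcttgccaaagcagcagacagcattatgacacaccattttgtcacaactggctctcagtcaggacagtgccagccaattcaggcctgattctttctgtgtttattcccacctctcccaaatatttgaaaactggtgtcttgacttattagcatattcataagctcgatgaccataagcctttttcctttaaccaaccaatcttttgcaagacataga

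The hexamer occurred 1 time before start A and 1 time before start B, and no match was found before start C. The GC content of these windows was 82.4% for A, 63.6% for B and 40.8% for C, against a median of 52.4% over all 32851 such windows in RefSeq.

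Ppard encodes PPARδ, a broadly expressed fatty acid receptor that promotes fatty acid oxidation, and it changed the other way. It lay at 3.53, 3.61 and 3.66 in the MIG-Hhex libraries of WT3, WT691 and WT703, against 2.83, 3.31 and 3.17 in the MIG libraries. The MIG-Hhex values were close together and all above the MIG values, by 0.50 on average (SE 0.09, 1.42-fold higher, limma adjusted p = 0.0162). The call was lost without replicate WT3 (limma adjusted p = 0.0634), without replicate WT703 (0.102) and without any 1 of MIG-Hhex WT3, MIG WT3 or MIG WT703 (limma adjusted p = 0.0625 to 0.0667). Dropping either or both WT3 libraries gave the same difference, 0.40, because the flow cell term fits a lone WT3 library exactly. Those losses are therefore not separate. It was also lost without the flow cell term (limma adjusted p = 0.178).

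The balance of the PPAR transcripts differed between the vectors. Taking the unlogged values as expression per unit of gene length, Pparg made up 11.1%, 5.36% and 2.86% of the summed Pparg and Ppard level in the MIG-Hhex libraries of WT3, WT691 and WT703. In the MIG libraries it made up 52.0%, 28.6% and 27.7%. The groups did not overlap in this share. They did overlap in the summed level, which was 3.70 ± 0.01 with MIG-Hhex and 3.77 ± 0.13 with MIG on the log2 scale (SD, n = 3 each).

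**Figure D2:**
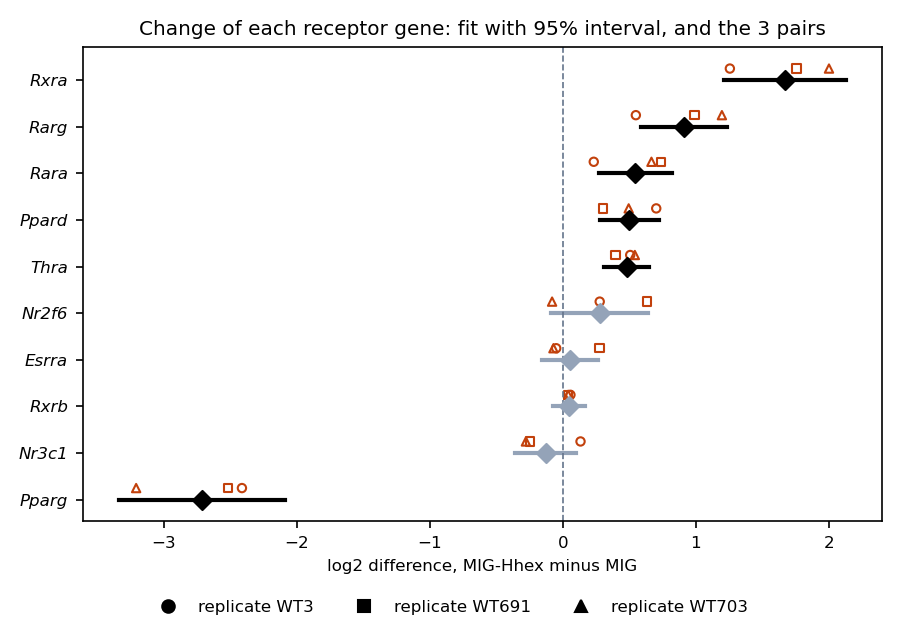
Difference between MIG-Hhex and MIG on the log2 scale (horizontal axis) for each receptor gene. Diamonds and bars give the fitted difference with its 95% interval, black where the adjusted p is under 0.05 and grey otherwise, and open orange symbols give the 3 replicate pairs; the interval of Pparg is −3.34 to −2.09 and that of Rxra 1.22 to 2.13.

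Rxra and Rxrb encode RXRα and RXRβ, the shared partners of the PPAR, retinoic acid and thyroid hormone receptors. Rxra lay at 2.19, 2.52 and 2.35 in the MIG-Hhex libraries of WT3, WT691 and WT703, against 0.93, 0.76 and 0.34 in the MIG libraries. Every MIG-Hhex value exceeded every MIG value by more than 1 log2 unit. The difference was 1.67 (SE 0.19, 3.19-fold higher, limma adjusted p = 0.00356), and it passed the threshold in all 18 alternative analyses run, with an adjusted p up to 0.0299. These runs are not independent, and some repeat the same fit or the same difference. Rxrb, the more abundant of the pair per unit of length, lay between 4.98 and 5.36 in MIG-Hhex libraries and between 4.94 and 5.30 in MIG libraries. Its difference was 0.05 with a 95% interval of −0.07 to 0.17 (limma adjusted p = 0.551), and it was −0.07 after a trend with transcript GC content was removed. Rxra made up 9.99%, 15.3% and 13.5% of the summed Rxra and Rxrb level in the MIG-Hhex libraries of WT3, WT691 and WT703, and 4.61%, 5.22% and 3.85% in the MIG libraries. The share did not overlap between the groups, and Rxrb was the larger part of the sum in all 6 libraries.

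Rxra (Entrez 20181) lies on the plus strand of chromosome 2 from 27676445 to 27763319 in GRCm38, and Rxrb (Entrez 20182) on chromosome 17 from 34031812 to 34038403. The promoter windows used hold 2 RefSeq starts of Rxra, A and B, that lie 32091 bases apart. Both windows lie inside the gene span, which begins upstream of window A. The 250 bases before each of these starts are shown because Rxra had the largest rise of the set, with the same hexamer in capitals.
Rxra start A, chr2:27676951-27677200, plus strand: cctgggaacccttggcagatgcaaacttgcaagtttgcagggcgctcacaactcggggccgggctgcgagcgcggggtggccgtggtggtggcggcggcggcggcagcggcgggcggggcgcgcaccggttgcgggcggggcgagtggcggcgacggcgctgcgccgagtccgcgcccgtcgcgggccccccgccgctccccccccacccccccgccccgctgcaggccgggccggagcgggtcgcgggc
Rxra start B, chr2:27709042-27709291, plus strand: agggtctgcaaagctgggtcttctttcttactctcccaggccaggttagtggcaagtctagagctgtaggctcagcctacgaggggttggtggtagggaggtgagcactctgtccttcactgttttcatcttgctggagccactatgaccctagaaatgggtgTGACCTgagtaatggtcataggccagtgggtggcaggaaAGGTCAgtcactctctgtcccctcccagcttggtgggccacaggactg

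The hexamer was not found before start A and occurred 2 times before start B, 1 time on each strand. RefSeq gave 16 windows for 8 of the 10 receptors, and those of Rara overlap in part. AGGTCA on either strand was found in 4 of the 16, those already named and 1 of Rarg, and in 14.0% of all windows. ATTAAA, a sequence with the core that homeobox factors such as Hhex bind, was found on either strand in 0 of the 16 and in 12.7% of all windows. This hexamer holds only A and T, and most of the 16 windows exceeded the median GC content of all windows, 52.4%. How far GC content bears on the count was not tested. These matches describe the letters of the windows, and no binding was measured here.

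Rara and Rarg encode the retinoic acid receptors α and γ. RARα is the receptor through which retinoic acid promotes granulocyte maturation, and RARγ supports the maintenance of mouse blood stem cells. Rarg lay at 2.93, 2.97 and 3.01 in the MIG-Hhex libraries of WT3, WT691 and WT703, against 2.38, 1.98 and 1.81 in the MIG libraries. The MIG-Hhex values spanned less than 0.1 log2 units and stood above all MIG values, by 0.91 (SE 0.14, 1.88-fold higher, limma adjusted p = 0.00845). Leaving out replicate WT703 ended the call (limma adjusted p = 0.0669), as did leaving out the flow cell term (0.063).

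Rara lay at 3.01, 3.35 and 3.31 in the MIG-Hhex libraries of WT3, WT691 and WT703, against 2.78, 2.62 and 2.64 in the MIG libraries. It was higher in each pair, by 0.23, 0.74 and 0.67, and by 0.55 in the fit (SE 0.11, 1.46-fold higher, limma adjusted p = 0.0232). The call was lost in 8 of 18 alternatives, the most of the 6 receptors that passed. It was lost without any 1 of MIG-Hhex WT691, MIG-Hhex WT703, MIG WT691 or MIG WT703 (limma adjusted p = 0.0616 to 0.094), without replicate WT691 (0.111) and without replicate WT703 (0.142). It was also lost without a mean-variance trend (limma adjusted p = 0.0514) and without the flow cell term (0.126). Together Rara and Rarg reached 4.10 ± 0.11 with MIG-Hhex and 3.40 ± 0.17 with MIG on the log2 scale (SD, n = 3 each), with no overlap between the groups.

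Thra encodes the thyroid hormone receptor α, the main thyroid hormone receptor of blood cell precursors. It lay at 3.91, 4.14 and 4.12 in the MIG-Hhex libraries of WT3, WT691 and WT703, against 3.41, 3.74 and 3.57 in the MIG libraries. All pairs differed by a similar amount, 0.51, 0.40 and 0.54, and the fitted difference was 0.48 (SE 0.07, 1.40-fold higher, limma adjusted p = 0.00801). With replicate WT703 left out, Thra missed the threshold (limma adjusted p = 0.0628), and likewise with no flow cell term (0.143). The exons of Thra share 263 bases, 5.7% of their length, with Nr1d1 on the opposite strand, and whether reads were counted by strand is not given in the sources used here. Nr1d1, which encodes the circadian repressor REV-ERBα, had a difference of −0.05 (limma adjusted p = 0.866).

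The other 3 receptors did not pass the test, and their groups overlapped. Nr3c1, the glucocorticoid receptor, lay at 3.88, 4.07 and 3.97 in the MIG-Hhex libraries of WT3, WT691 and WT703, against 3.74, 4.31 and 4.24 in the MIG libraries. It was higher with MIG-Hhex in the WT3 pair and lower in the other 2, with a difference of −0.13 (95% interval −0.36 to 0.10, limma adjusted p = 0.382). Esrra encodes ERRα, an orphan receptor that drives mitochondrial genes. It lay between 4.01 and 4.34 in MIG-Hhex libraries and between 3.82 and 4.39 in MIG libraries, a difference of 0.05 (95% interval −0.16 to 0.26, limma adjusted p = 0.711). Nr2f6, an orphan receptor that acts mostly as a repressor, lay at 3.06, 2.24 and 2.02 in the MIG-Hhex libraries of WT3, WT691 and WT703, against 2.78, 1.61 and 2.10 in the MIG libraries. Its WT3 libraries were the highest of each group, and the difference was 0.28 (95% interval −0.08 to 0.64, limma adjusted p = 0.245). Of the Nr2f6 exon sequence in GENCODE, 54.4% is shared with Ocel1 on the opposite strand, so its value is uncertain. For Esrra 1.66% is shared with Trmt112 on the opposite strand.

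The direction of the 6 changes was the same on both flow cells. The run on C5LWPANXX alone is the same as leaving out replicate WT3. On C5LWPANXX alone, with 4 libraries, the difference was −2.86 for Pparg (limma adjusted p = 0.0139), 1.88 for Rxra (0.0107), 1.09 for Rarg (0.0116), 0.70 for Rara (0.0179), 0.47 for Thra (0.0396) and 0.40 for Ppard (0.0634). The single pair on C3RJFACXX, which allows no test, differed by −2.41 for Pparg, 1.26 for Rxra, 0.55 for Rarg, 0.23 for Rara, 0.51 for Thra and 0.70 for Ppard. In GRCm38, Ppard spans chr17:28232754-28301469, Rarg chr15:102234938-102257522 and Esrra chr19:6910977-6922048. Rara (chr11:98927800-98974942) and Thra (chr11:98740776-98769006) both lie on chromosome 11.

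Ranked by mean level per unit of length, the MIG-Hhex libraries ran from Rxrb (5.12) through Esrra (4.15), Thra (4.06), Nr3c1 (3.97), Ppard (3.60), Rara (3.22), Rarg (2.97), Nr2f6 (2.44) and Rxra (2.35) to Pparg (−0.47). In MIG libraries the order was Rxrb (5.08), Nr3c1 (4.10), Esrra (4.09), Thra (3.57), Ppard (3.10), Rara (2.68), Pparg (2.24), Nr2f6 (2.17), Rarg (2.06) and Rxra (0.68). Pparg was thus the lowest of the 10 with MIG-Hhex, and above Nr2f6, Rarg and Rxra with MIG. Esrra, Thra and Nr3c1 in MIG-Hhex libraries, and likewise Nr2f6 and Rxra, differed from their neighbour by less than the smaller of the SDs. In MIG libraries the same held for Nr3c1 and Esrra, and for Pparg, Nr2f6 and Rarg.

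Genes were also ranked by how closely their profile over the 6 libraries followed that of Pparg, as the root mean square difference after each gene was centred on its own mean. The nearest 5 were Fn1 (0.32 log2 units), Ms4a4b (0.33), Sqrdl (0.36), Shtn1 (0.38) and D5Ertd605e (0.39). Fn1 encodes fibronectin, Ms4a4b a membrane protein of the MS4A family, Sqrdl the mitochondrial sulfide quinone oxidoreductase and Shtn1 the cytoskeletal protein shootin. Their MIG-Hhex minus MIG differences lay between −2.96 (Shtn1) and −2.13 (D5Ertd605e). With 1 added to the unlogged values, Ms4a4b had −1.46 in place of −2.90 and Shtn1 −1.91. All 5 were highest in the WT3 library among the MIG-Hhex libraries, as Pparg was. Among the MIG libraries Pparg was again highest in WT3, while Sqrdl (3.82) and Shtn1 (2.83) were highest in WT691. Without the flow cell term Sqrdl kept its call, and the other 4 missed the threshold, as Pparg did (limma adjusted p = 0.0732 for Fn1, 0.0777 for Ms4a4b, 0.0585 for Shtn1 and 0.0615 for D5Ertd605e). The genes were chosen by this likeness, so their shared pattern follows from the choice. The likeness rests on 6 libraries that share the same groups and is given as a description.

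**Figure D3:**
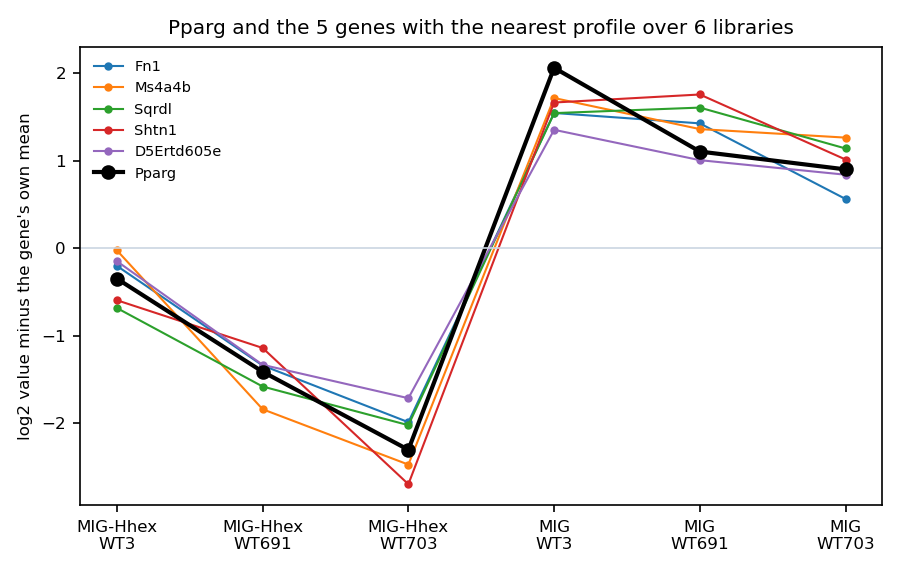
Log2 value minus the gene's own mean (vertical axis) of Pparg, in black, and of the 5 genes with the nearest profile, in the 3 MIG-Hhex and then the 3 MIG libraries; lines only join the values of a gene. All 6 genes lie below 0 in each MIG-Hhex library and above 0 in each MIG library.

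For other members of the nuclear receptor superfamily, 13 of 39 listed genes had a value, 2 rose, 0 fell and 11 did not pass. The share that passed was 15.4%, near the 18.0% of all genes. The list's median was 0.08, against −0.02 for all genes. Vdr, the vitamin D receptor and another RXR partner, lay at 1.81, 2.33 and 2.20 in the MIG-Hhex libraries of WT3, WT691 and WT703, against 0.85, 1.35 and 1.24 in the MIG libraries. It rose 1.96-fold (log2 0.97, SE 0.12, limma adjusted p = 0.00421), by nearly the same amount in each pair. Nr4a1, an immediate early orphan receptor, rose 2.31-fold (log2 1.21, SE 0.16, limma adjusted p = 0.00523). Both calls were lost without the flow cell term (limma adjusted p = 0.091 for Vdr and 0.0714 for Nr4a1) and held in the other 17 alternatives. Nr0b2, a repressor of other receptors, differed by 0.75 (limma adjusted p = 0.0983; 0.04 with the replicate as a block), and Esr1, the oestrogen receptor α, by −0.72 (0.102). With 1 added to the unlogged values these were 0.48 and −0.38.

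Known PPAR target genes moved in both directions: 25 of 35 listed genes had a value, 5 rose, 2 fell and 18 did not pass. Those that passed made up 28%, against 18.0% of all genes, and the list's median was 0.10. Acsl1, which activates fatty acids, rose by 0.59 (limma adjusted p = 0.0024). Cpt1a, which carries fatty acids into mitochondria, rose by 0.29 (limma adjusted p = 0.0212), the dehydrogenase Acadvl by 0.25 (0.0161) and the carnitine carrier Slc25a20, named after its value was seen, by 0.27 (0.0377). Angptl4, a secreted inhibitor of lipoprotein lipase, lay at 3.50, 2.90 and 2.90 in the MIG-Hhex libraries of WT3, WT691 and WT703, against 4.24, 4.01 and 4.21 in the MIG libraries, and fell 2.08-fold (limma adjusted p = 0.00312). Fabp5, a fatty acid-binding protein, fell by 0.45 (limma adjusted p = 0.00739; 0.0591 without replicate WT703). Fabp4, a PPARγ target of fat cells and macrophages, differed by 0.93 (SE 0.55, limma adjusted p = 0.278; 0.035 with the replicate as a block), and the fatty acid transporter Slc27a1 by 0.48 (0.159). With 1 added these were 0.46 and 0.31. Acadvl lost its call without any 1 of MIG-Hhex WT3, MIG-Hhex WT691, MIG-Hhex WT703, MIG WT3 or MIG WT703 (limma adjusted p = 0.0582 to 0.0647). Cpt1a lost its call without any 1 of MIG-Hhex WT691, MIG-Hhex WT703, MIG WT691 or MIG WT703 (limma adjusted p = 0.0552 to 0.0886). Without the flow cell term, Angptl4 (0.0553), Fabp5 (0.299), Acadvl (0.303) and Cpt1a (0.727) missed the threshold (limma adjusted p in parentheses).

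**Figure D4:**
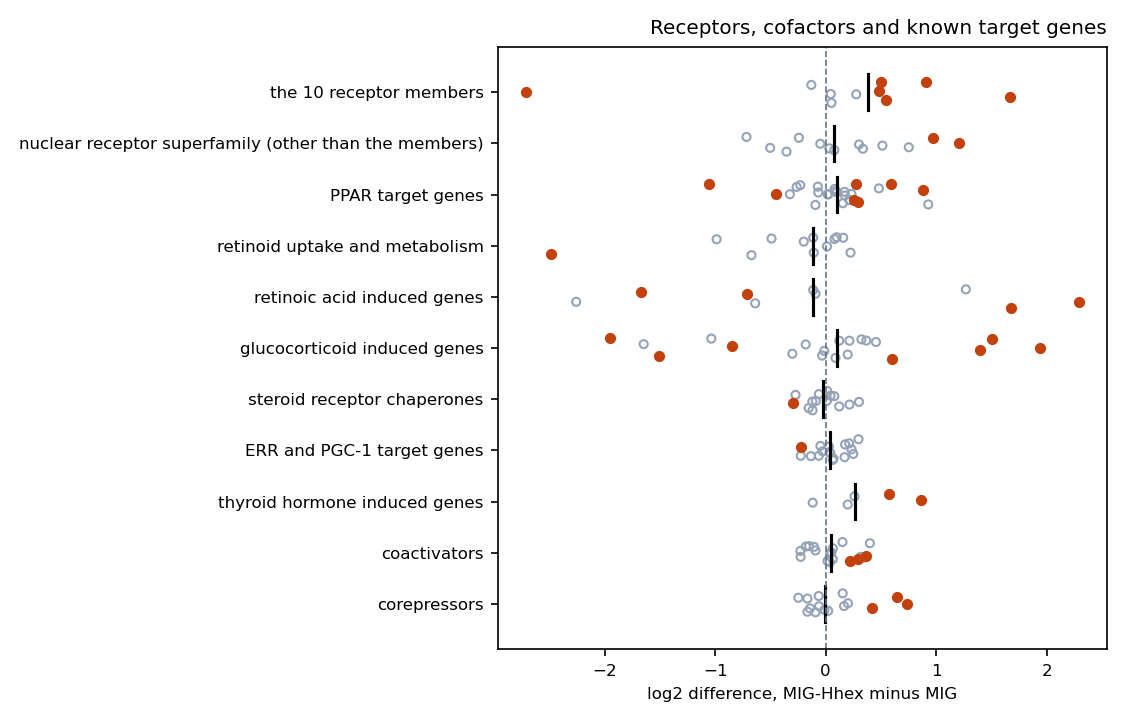
MIG-Hhex minus MIG difference on the log2 scale (horizontal axis) of the 10 receptors and of the measured genes of each list (rows). Filled orange points have an adjusted p under 0.05, open grey points do not, and the black bar is the row's median; Pparg is the leftmost point of the top row.

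For genes of retinoid uptake and metabolism, 12 of 23 listed genes had a value, 0 rose, 1 fell and 11 did not pass. In this list 8.33% passed, against 18.0% of all genes, and the median was −0.11. Bco2, a mitochondrial carotenoid-cleaving enzyme, lay at −1.59, −3.51 and −3.01 in the MIG-Hhex libraries of WT3, WT691 and WT703, against −0.27, 0.12 and −0.49 in the MIG libraries. It fell by 2.49 (SE 0.46, limma adjusted p = 0.0158), and its difference was −0.67 with 1 added to the unlogged values. The call was lost without replicate WT691 (limma adjusted p = 0.0623), without replicate WT703 (0.1) and without any 1 of MIG-Hhex WT691 or MIG WT703 (limma adjusted p = 0.0546 to 0.0629), and also without the flow cell term (0.0845). Aldh1a1, which makes retinoic acid, differed by −0.99 (limma adjusted p = 0.12), and Bco1, which cleaves β-carotene, by −0.67 (0.436). With 1 added these were −0.38 for Aldh1a1 and −0.07 for Bco1.

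For genes known to be induced by retinoic acid, 9 of 16 listed genes had a value, 2 rose, 2 fell and 5 did not pass. The share that passed was 44.4% of these few genes, against 18.0% of all genes, and the list's median was −0.11. Tgm2, the tissue transglutaminase, lay at 2.10, 4.33 and 3.78 in the MIG-Hhex libraries of WT3, WT691 and WT703, against 0.07, 1.81 and 1.45 in the MIG libraries. It was higher in each pair by more than 2 log2 units and rose 4.91-fold (log2 2.30, SE 0.19, limma adjusted p = 0.00151). Cebpe, a factor of granulocyte maturation, rose by 1.67 (SE 0.14, limma adjusted p = 0.00162). In the other direction, the integrin subunit Itga4 fell by 0.71 (limma adjusted p = 0.0153). Itga4 lost its call without any 1 of MIG-Hhex WT691, MIG-Hhex WT703 or MIG WT703 (limma adjusted p = 0.0513 to 0.0633). Without the flow cell term the calls of Tgm2, Cebpe and Itga4 were lost (limma adjusted p = 0.171, 0.121 and 0.147). Ccr9, a gut-homing chemokine receptor, differed by −2.26 (limma adjusted p = 0.174; 0.0287 without replicate WT3), and Asb2, a ubiquitin ligase subunit, by 1.27 (0.122). Both had low values, and with 1 added to the unlogged values the differences were −0.29 for Ccr9 and 0.26 for Asb2.

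Glucocorticoid-induced genes also moved both ways: 20 of 22 listed genes had a value, 4 rose, 3 fell and 13 did not pass. Those that passed made up 35%, against 18.0% of all genes, and the list's median was 0.11. Hsd11b1, which regenerates active glucocorticoid inside cells, lay at 6.10, 6.22 and 5.89 in the MIG-Hhex libraries of WT3, WT691 and WT703, against 4.54, 4.17 and 3.67 in the MIG libraries. It rose 3.84-fold (log2 1.94, SE 0.18, limma adjusted p = 0.00191). Anxa1, the anti-inflammatory protein annexin A1, lay at 5.85, 5.38 and 5.19 in the MIG-Hhex libraries of WT3, WT691 and WT703, against 7.55, 7.41 and 7.33 in the MIG libraries. It fell 3.88-fold (log2 −1.96, SE 0.10, limma adjusted p = 0.000528). Neither gene's groups overlapped, and both calls held in all 18 alternatives. Pik3ip1, a brake on PI3 kinase, fell by 1.51 (limma adjusted p = 0.00153) and the transcription factor gene Cebpd by 0.85 (0.00851; 0.063 without replicate WT703). Zbtb16, the factor PLZF, rose by 1.51 (limma adjusted p = 0.00431; 0.0528 without replicate WT703), or 0.83 with 1 added. Ddit4, an mTOR inhibitor, rose by 1.39 (limma adjusted p = 0.00815; 0.072 without replicate WT703), and the kinase gene Map3k6, named after its value was seen, by 0.60 (0.0425). Errfi1 differed by −1.65 (limma adjusted p = 0.0586), or −0.37 with 1 added (0.0452), and Cd163 by −1.03 (0.0883; 0.0286 with the replicate as a block), or −0.42 with 1 added. Without the flow cell term Cebpd and Zbtb16 missed the threshold (limma adjusted p = 0.682 and 0.0631). Fkbp5 and Tsc22d3, widely used readouts of the receptor that were chosen after their values were seen, differed by 0.12 and −0.18 (limma adjusted p = 0.124 and 0.159).

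For steroid receptor chaperones, 14 of 14 listed genes had a value, 0 rose, 1 fell and 13 did not pass. In this list 7.14% passed, against 18.0% of all genes, and the median was −0.02. The phosphatase Ppp5c fell by 0.29 (limma adjusted p = 0.0142), and the call was lost without any 1 of MIG-Hhex WT3, MIG-Hhex WT691, MIG WT3 or MIG WT703 (limma adjusted p = 0.0596 to 0.069) and without the flow cell term (0.16). Ptges3 (p23) differed by 0.30 (limma adjusted p = 0.43) and the cyclophilin Ppid by −0.27 (0.0564; 0.0143 with the replicate as a block). For genes driven by ERR factors and PGC-1 coactivators, 17 of 18 listed genes had a value, 0 rose, 1 fell and 16 did not pass. The share that passed was 5.88%, also below that of all genes, and the list's median was 0.04. The member that fell was citrate synthase, Cs, by 0.22 (limma adjusted p = 0.0369), and this call was lost in 14 of 18 alternatives, also without any 1 of the 6 libraries (limma adjusted p = 0.052 to 0.125) and without the flow cell term (0.515). Vegfa, the vascular growth factor, differed by 0.30 (limma adjusted p = 0.167) and Mfn2, a mitochondrial fusion protein, by 0.25 (0.0816).

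For genes induced by thyroid hormone or handling it, 5 of 11 listed genes had a value, 2 rose, 0 fell and 3 did not pass. Those that passed made up 40% of these few genes, against 18.0% of all genes, and the list's median was 0.26. Dio2, the deiodinase that makes active thyroid hormone, rose by 0.87 (SE 0.17, limma adjusted p = 0.0188), and Bcl3, an NF-κB cofactor, by 0.57 (0.0198). Dio2 lost its call without any 1 of MIG-Hhex WT3, MIG-Hhex WT691, MIG WT3 or MIG WT703 (limma adjusted p = 0.0557 to 0.0801). Bcl3 lost it without any 1 of MIG-Hhex WT691, MIG WT691 or MIG WT703 (limma adjusted p = 0.0516 to 0.0702). Both were lost without the flow cell term (limma adjusted p = 0.0812 for Dio2 and 0.24 for Bcl3). The hormone transporter Slc16a10 differed by 0.26 (limma adjusted p = 0.081; 0.0427 with the replicate as a block) and the factor Klf9 by 0.20 (0.301).

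Among coactivators, 19 of 20 listed genes had a value, 3 rose, 0 fell and 16 did not pass. The share that passed was 15.8%, near the 18.0% of all genes, and the list's median was 0.05. Ncoa7 rose by 0.36 (limma adjusted p = 0.0332), the acetyltransferase gene Ep300 by 0.30 (0.0383) and Tob2 by 0.22 (0.0342). Ncoa7 and Tob2 each lost the call without any 1 of the 6 libraries (limma adjusted p up to 0.125 and 0.105). Ep300 lost it without any 1 of MIG-Hhex WT3, MIG-Hhex WT691, MIG-Hhex WT703, MIG WT3 or MIG WT703 (limma adjusted p = 0.083 to 0.14). Prdm16 differed by 0.40 (limma adjusted p = 0.47) and Lpin1 by 0.35 (0.128; 0.0372 without a mean-variance trend), or 0.13 and 0.23 with 1 added. The calls of Ncoa7, Ep300 and Tob2 were also lost without the flow cell term (limma adjusted p = 0.382, 0.829 and 0.447).

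Among corepressors, 15 of 15 listed genes had a value, 3 rose, 0 fell and 12 did not pass. In this list 20% passed, near the 18.0% of all genes, and the median was −0.01. The histone deacetylase genes Hdac5 and Hdac7 rose by 0.65 and 0.42 (limma adjusted p = 0.00728 and 0.0328). Hdac7 lost its call without any 1 of the 6 libraries (limma adjusted p = 0.0622 to 0.0976), and both genes lost theirs without the flow cell term (0.139 for Hdac5 and 0.285 for Hdac7). Gps2 differed by −0.25 (limma adjusted p = 0.097; 0.0348 with the GC trend removed) and Asxl1 by 0.20 (0.106).

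Markers of other cell types are given beside the receptors, and their counts are to be read against the 18.0% of all genes that passed. Of the 15 monocyte, macrophage and dendritic cell markers with a value, 4 rose and 2 fell. Their summed level on the log2 scale was 10.88, 9.52 and 8.96 in the MIG-Hhex libraries of WT3, WT691 and WT703, against 10.53, 9.08 and 8.66 in the MIG libraries. The WT3 libraries were the highest in both groups, as they were for Pparg, and the groups overlapped. In both groups WT3 also had the highest neutrophil, eosinophil, mast cell and basophil, and erythroid sums given below. Of the 14 neutrophil markers, 7 rose and 2 fell, with summed levels of 12.69 to 13.29 with MIG-Hhex and 12.90 to 13.31 with MIG. Of the 9 eosinophil markers, 2 rose and 0 fell, with sums of 5.99 to 6.94 with MIG-Hhex and 3.09 to 6.45 with MIG. Of the 7 mast cell and basophil markers, 1 rose and 3 fell, with sums of 7.20 to 8.10 with MIG-Hhex and 7.58 to 8.74 with MIG. Of the 10 erythroid markers, 4 rose and 2 fell, with sums of 7.75 to 8.11 with MIG-Hhex and 7.73 to 8.13 with MIG. Of the 9 megakaryocyte markers, 4 rose and 1 fell, with sums of 6.50 to 7.10 with MIG-Hhex and 6.36 to 6.77 with MIG. For all 6 of these cell types the sums overlapped between the vectors. Within replicate pairs, the monocyte and eosinophil sums were always higher with MIG-Hhex, and the neutrophil and mast cell sums always lower. Unlogged values were summed, so the most abundant genes weigh most. Among the neutrophil markers Mpo fell by 3.12 (limma adjusted p = 0.0105) while 7 rose, and the WT3 sums were 13.29 and 13.31. Lyz2 and Ly6c2, the most abundant monocyte markers, did not pass. These 3 genes were named after their values were seen. The erythroid and megakaryocyte pairs went both ways. Of the 12 stem and progenitor markers, 0 rose and 1 fell, with sums of 8.61 to 8.95 with MIG-Hhex and 8.88 to 9.09 with MIG. These sums were lower with MIG-Hhex in each pair. Adipoq, Plin1 and Lep, listed as adipocyte markers, had no row under these symbols in the deposited table. Of 12 adipocyte and stromal markers 3 had a value (Pdgfrb, Col1a2 and Fabp4), 1 rose and 0 fell. Their sum was 2.98, 3.75 and 3.60 in the MIG-Hhex libraries of WT3, WT691 and WT703, against 2.03, 2.22 and 2.38 in the MIG libraries, with no overlap. The member that rose was Pdgfrb, a growth factor receptor of stromal cells, 2.63-fold (limma adjusted p = 0.00261), and it was named after its value was seen. Fabp4 differed by 0.93 and Col1a2, in the other direction, by −1.88, and neither passed the test. The part of these cell types in the receptor changes was not tested. With a trend on transcript GC content removed, the calls of all 6 receptors held.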

How the data were processed

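Levels of mRNA came from 6 libraries, 3 with MIG-Hhex and 3 with MIG, grouped by the vector label. The authors deposited log2 values per Entrez gene. The submitters' processing notes name mm10 and the tools Subread, featureCounts, edgeR and limma, with no version given; the order of steps and the normalization were not found in the labels. Unlogged values times transcript length in kb summed to between 1.20e+06 and 1.24e+06 per library, so they were read as RPKM-like values per length. With the length of all exons instead, the sums were 1.72e+06 to 1.77e+06, so the length behind the values is uncertain. Counts and depth are unknown, and no counting interval is given.

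The members and gene lists were chosen with earlier results of these data known. The values were fitted with limma 3.58.1 in R 4.3.3 (flow cell and vector terms, eBayes with a trend), two-sided, with Benjamini-Hochberg adjustment over 12161 genes and a threshold of 0.05. A filter on values above the library minimum in at least 3 libraries removed 0 genes. The fit was tested on simulated data with independent normal residuals and a flow cell shift. Same-named libraries were not linked in that simulation, so it cannot check the p-values against such a link. Differences are MIG-Hhex minus MIG with the standard error of the fit. Named were the members, Hhex, up to 6 genes past the threshold and the 2 largest other differences of each list, and the 5 genes nearest Pparg; some genes that the rule takes are not reported here. The replicate names in the titles were taken to pair the libraries. Deviations from the group means correlated between same-named libraries at 0.742 (WT3), 0.585 (WT691) and 0.656 (WT703). These values cannot decide the pairing, because WT3 is alone on its flow cell and a flow cell shift raises them too. Libraries of different names were not compared. The labels do not say what a shared name stands for, so p-values measure the spread between these libraries that is left after the flow cell term. Positions and promoter windows are from RefSeq (GRCm38.p6), exon overlap and GC content from GENCODE M21; GC content was known for 96.5% of genes and all 10 receptors. In the GC alternative, a lowess trend (span 0.3) was removed from each library.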

Additional observations from a re-analysis of the deposited data

How the results depend on the processing

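Of 18 alternatives, the direction of 8 receptors was the same in all. Rxrb turned to −0.07 with the GC trend removed, and Esrra changed sign in 2, neither past the threshold. Settings such as the replicate block or no flow cell term leave each difference unchanged, so they cannot change a sign. With the replicate block 5 receptors were higher and 1 lower, as in the fit reported, and over all genes 1506 were higher and 1473 lower, against 1148 and 1036. The replicate block changed no receptor's call. Without the flow cell term 1 receptor (Rxra) was higher and 0 lower, and 119 and 98 of all genes. Leaving out a library or a replicate gave 1 to 4 receptors higher and 1 lower, and 355 to 835 of all genes higher and 270 to 634 lower; 1 receptor was higher without replicate WT703 and 3 without its MIG library. Flow cell C5LWPANXX alone gave 698 genes higher and 519 lower, with 4 receptors higher, and is the same run as leaving out replicate WT3. Without a mean-variance trend 638 genes were lower. For the other 55 named genes, 981 values under alternatives all kept their sign, with 146 calls lost and 13 gained. Apart from Hhex, these genes were chosen by p, difference or likeness to Pparg in these same data. Their kept signs therefore follow largely from the choice. Runs that leave out libraries rest on fewer samples. Those that drop either or both WT3 libraries share the same difference for each gene, so they are not separate checks. For the other settings the cause was not tested. Depth is unknown, and 3 residual degrees of freedom limit the precision. Values below 0, as for Pparg with MIG-Hhex, depend most on the unknown offset of the log scale.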
